A study of Mus musculus with 6 samples.

Results

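Transcripts of 9 genes of the tricarboxylic acid cycle were followed in cultured brown adipocytes, WT or Ucp1-KO. They encode citrate synthase (Cs), the subunits of the NAD-dependent isocitrate dehydrogenase (Idh3a, Idh3b and Idh3g), components of the 2-oxoglutarate dehydrogenase complex (Ogdh and Dlst), subunits of succinate-CoA ligase (Sucla2 and Suclg1) and fumarase (Fh1). The 9 genes were chosen by name from a table of 22466 genes with RefSeq transcripts. Each gene is represented by its most abundant RefSeq transcript, a choice that only Ogdh, listed with 5, required.

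The cycle takes up acetyl-CoA from fatty acids and pyruvate, releases its carbon as CO2 and passes the electrons as NADH and FADH2 to the respiratory chain. Brown adipocytes are packed with mitochondria and oxidise fuel at high rates when uncoupling protein 1 (Ucp1) makes the inner membrane leaky to protons. Citrate synthase catalyses the entry step and is a common marker of mitochondrial mass. The isocitrate and 2-oxoglutarate dehydrogenases are the regulated steps at which the cycle releases CO2.

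Precursor cells of interscapular brown fat from male mice of strain 129SvEvS1, aged 5 to 6 weeks, were differentiated in the dish. Both genotypes were induced with isobutylmethylxanthine, indomethacin, dexamethasone, insulin, triiodothyronine and rosiglitazone, and then kept with insulin, triiodothyronine and rosiglitazone for 7 days. The 3 WT cultures carry the replicate numbers 10, 11 and 12 and come from wildtype mice. The 3 Ucp1-KO cultures, numbers 13, 14 and 15, come from UCP1(-/-) mice, so that precursors and adipocytes alike carried the mutation. The labels name no adrenergic treatment and do not say whether each culture came from a different animal, so p-values measure the spread between cultures.

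Abundance is given in RPKM, the reads of a transcript scaled to its length and to the mapped reads of the library. Read totals, recovered from the steps between low RPKM values, lay between 14989604 and 17727653 per culture. Ucp1, the targeted gene, had 1775, 981 and 1157 RPKM in the WT and 307, 409 and 398 RPKM in the Ucp1-KO cultures, in order of replicate number. The Ucp1-KO cultures lay below all WT cultures, at 28.4% of the WT mean (log2 fold change -1.78, SE 0.24, limma unadjusted p = 0.000157, adjusted p = 0.868). The adjusted threshold of 0.05 was thus not reached by the targeted gene itself, so that a count of 0 at this threshold does not show that levels were equal. The paper, with the count test DESeq2, listed Ucp1 among its differentially expressed genes, and none of the genes followed here. RPKM do not show on which exons the remaining reads fell. From its mapped reads, the paper attributed them to a non-functional remnant transcript that lacks some exons. It detected no Ucp1 protein in Ucp1-KO cells by Western blot. All 8 markers of brown adipocytes or adipocytes in general were detected in both genotypes, with summed levels from 30688 to 32822 RPKM in WT and from 30183 to 33809 RPKM in Ucp1-KO cultures. Fabp4, a fatty acid binding protein of all adipocytes, supplied 26399 to 29312 RPKM of each sum. Cidea, a lipid droplet protein of brown adipocytes, had 669, 615 and 791 RPKM in the WT and 635, 917 and 1371 RPKM in the Ucp1-KO cultures. Stromal and preadipocyte markers (6 of 7 with a mean of at least 0.5 RPKM) summed to 1579 RPKM in WT replicate 11, against 661 and 936 RPKM in the other WT and 581 to 942 RPKM in the Ucp1-KO cultures. Of the 7, 5 were highest in WT replicate 11, and the collagens Col1a1 (568 RPKM) and Col3a1 (718 RPKM) made up most of its sum. The 3 endothelial markers were also highest in WT replicate 11 with 27.4 RPKM, against 2.19 to 12.95 RPKM elsewhere. The 4 macrophage markers summed to 799 RPKM in Ucp1-KO replicate 14 and to between 41.2 and 168 RPKM in the others. Of 4 skeletal muscle markers 1 (Acta1) had a mean of at least 0.5 RPKM, Myh4 stayed at or below 0.0444 RPKM, and the sum was highest in Ucp1-KO replicate 13 with 10.2 RPKM, against 2.40 to 6.003 RPKM in the others. Myog, the regulator of muscle differentiation, had 1.21 RPKM in that culture and 0.766 RPKM in Ucp1-KO replicate 15. In such bulk samples fewer cells of a type and less RNA per cell cannot be told apart.

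All 9 genes belonged to the abundant transcripts of these cells, at ranks between 39 (Cs) and 290 (Ogdh) of all genes by their mean over the 6 cultures. Each value rested on 4801 to 34884 reads. RPKM are per length, so that levels may be compared between genes. Cs led with 667 RPKM on average, followed by Idh3a with 490, Idh3b with 417, Dlst with 307, Idh3g with 303, Suclg1 with 294, Sucla2 with 275, Fh1 with 256 and Ogdh with 174 RPKM. The order of neighbours was the same in 6 of 6 cultures for Cs above Idh3a, Suclg1 above Sucla2 and Fh1 above Ogdh. Ranges over cultures did not overlap between Cs and Idh3a or between Fh1 and Ogdh. Dlst, Idh3g and Suclg1 were not separated beyond the spread of the cultures, with Dlst above Idh3g in 3 of 6 and Idh3g above Suclg1 in 4 of 6.

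**Figure D1:**
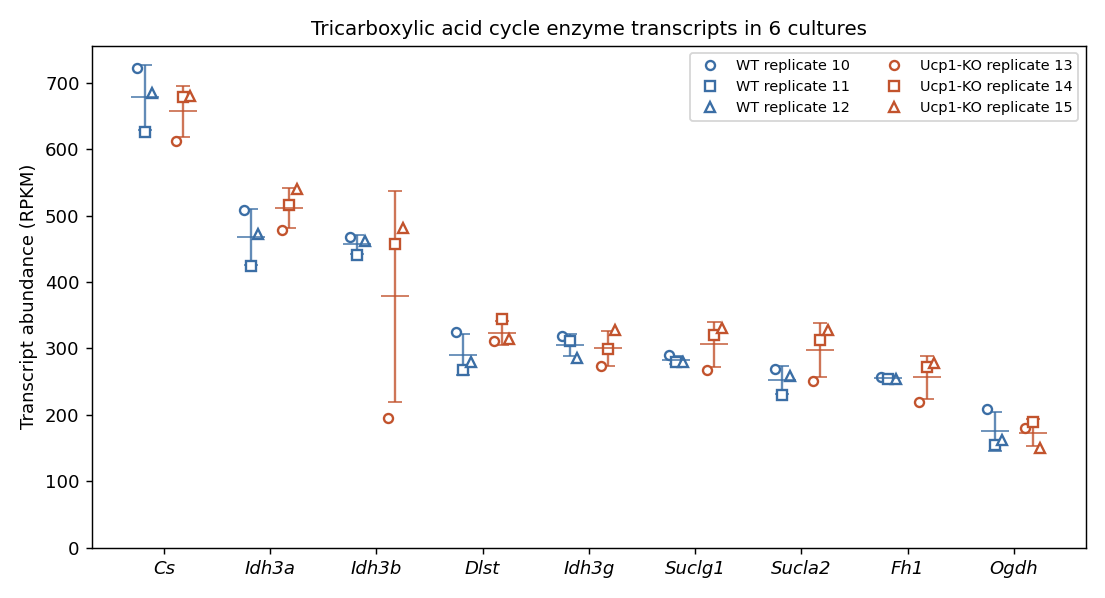
Abundance of the 9 transcripts in RPKM (vertical axis, linear from 0), ordered by their mean, with 1 symbol per culture and horizontal marks with bars for the mean ± SD of each genotype (n = 3). WT in blue and Ucp1-KO in red overlap for all 9 genes, and Idh3b of Ucp1-KO replicate 13 lies apart at 196 RPKM.

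Citrate synthase joins acetyl-CoA and oxaloacetate to citrate. Its gene Cs lies on chromosome 10 (128337727 to 128362482, forward strand, GRCm38) and has 11 exons. Cs had 723, 626 and 685 RPKM in WT replicates 10, 11 and 12, and 613, 678 and 681 RPKM in Ucp1-KO replicates 13, 14 and 15. The genotypes overlapped, with a WT culture highest and a Ucp1-KO culture lowest. Genotypes were compared with limma on log2(RPKM + 1) in a model over the 16865 RefSeq transcripts that averaged 0.5 RPKM or more, and a positive log2 fold change means higher in Ucp1-KO. For Cs this was -0.04 (SE 0.11), with a 95% confidence interval from 0.811-fold to 1.16-fold of WT (limma adjusted p = 0.959).

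Isocitrate dehydrogenase 3 oxidises isocitrate to 2-oxoglutarate. Idh3a encodes its catalytic alpha subunit, Idh3b the beta subunit and Idh3g the regulatory gamma subunit. Idh3a lies on chromosome 9 (54586511 to 54604662, forward strand, 11 exons), Idh3b on chromosome 2 (130279309 to 130284451, reverse strand, 12 exons) and Idh3g on chromosome X (73778963 to 73786897, reverse strand, 13 exons). The 250 bases upstream of the annotated start are shown for Idh3b and Idh3g, whose relative levels departed in a single culture. The sequences are from RefSeq on GRCm38.p6 and read 5′ to 3′ along the gene, Idh3b from chr2:130284452-130284701 and Idh3g from chrX:73786898-73787147, with a match to the NF-Y motif CCAAT on either strand in capitals.
Idh3b: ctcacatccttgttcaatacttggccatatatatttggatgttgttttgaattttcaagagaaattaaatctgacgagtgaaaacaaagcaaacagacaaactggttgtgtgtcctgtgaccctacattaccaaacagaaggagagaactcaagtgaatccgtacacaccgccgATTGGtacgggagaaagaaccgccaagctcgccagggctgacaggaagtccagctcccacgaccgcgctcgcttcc
Idh3g: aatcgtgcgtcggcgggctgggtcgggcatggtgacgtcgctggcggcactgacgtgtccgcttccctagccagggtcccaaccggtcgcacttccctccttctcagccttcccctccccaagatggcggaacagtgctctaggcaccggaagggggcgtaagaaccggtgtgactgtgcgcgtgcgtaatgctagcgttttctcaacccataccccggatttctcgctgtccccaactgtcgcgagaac

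Idh3a had 508, 424 and 473 RPKM in the WT and 479, 516 and 540 RPKM in the Ucp1-KO cultures. Its values overlapped between genotypes, with the lowest in WT replicate 11. Its log2 fold change was 0.13 (SE 0.11, limma adjusted p = 0.891). Idh3g had 318, 312 and 286 RPKM in the WT and 273, 299 and 327 RPKM in the Ucp1-KO cultures. Both extremes of Idh3g were Ucp1-KO cultures, and its log2 fold change was -0.03 (SE 0.11, limma adjusted p = 0.9747).

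Idh3b had 467, 441 and 462 RPKM in the WT cultures, and 196, 458 and 482 RPKM in Ucp1-KO replicates 13, 14 and 15. A single Ucp1-KO culture, replicate 13, thus lay far below the others, at 42.3% of their mean, while these other 5 agreed within 1.09-fold. The value rested on 4801 reads, against 10981 to 12447 reads in the other cultures. The summed skeletal muscle markers were also highest in this culture, and their part in the low value was not tested. Mean abundance was 457 ± 14.03 RPKM for WT against 378 ± 159 RPKM for Ucp1-KO (SD over 3 cultures each). The log2 fold change of -0.38 (SE 0.33, 95% confidence interval from 0.445-fold to 1.33-fold of WT, limma adjusted p = 0.893) became 0.04 (SE 0.10, limma adjusted p = 0.918) without Ucp1-KO replicate 13. In the other 8 genes this culture stood between 83.5% (Fh1) and 104% (Ogdh) of the mean of the remaining 5.

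The low value was not limited to the RefSeq transcript. The table lists Idh3b in 4 rows, which share reads, and Ucp1-KO replicate 13 was at 42.3% to 47.5% of the mean of the other cultures in each of them. Idh3b overlaps the end of Nop56, a nucleolar protein gene on the opposite strand, by a few bases, and no strand setting of the counting is given in the sources used here. Nop56 had 10.4 RPKM in this culture and 6.55 to 9.68 RPKM in the others, little beside Idh3b. Within 250 kb, 6 genes had a mean of at least 0.5 RPKM, and 2 of them were lower in Ucp1-KO replicate 13 than in all other cultures, as were 24.3% of the 12259 genes at that minimum. These were Cpxm1, a carboxypeptidase family gene with 3.12 against 3.97 to 17.1 RPKM, and Pced1a, at 79.5% of the mean of the others.

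How often a single culture departs in this way was counted over the 7519 genes with a mean of at least 5 RPKM. The criterion, set after the values of Idh3b had been seen, was a value under 0.6 times the lowest, or over the highest divided by 0.6, of 5 cultures that agree within 1.3-fold. Depending on the culture, between 3026 and 3810 genes agreed this closely in the other 5. Besides Idh3b, only Hcn2, a pacemaker channel gene, was low (11.4 against 19.6 to 24.3 RPKM, also Ucp1-KO replicate 13), and Id2, which encodes an inhibitor of DNA binding, was high (32.0 against 11.9 to 15.4 RPKM, Ucp1-KO replicate 14). In the 3 WT cultures and in Ucp1-KO replicate 15, 0 genes met the criterion in either direction. Among the 517 genes with a mean of at least 100 RPKM, 38 had a wider range over the 6 cultures than the 2.46-fold of Idh3b, where the median was 1.34-fold.

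**Figure D2:**
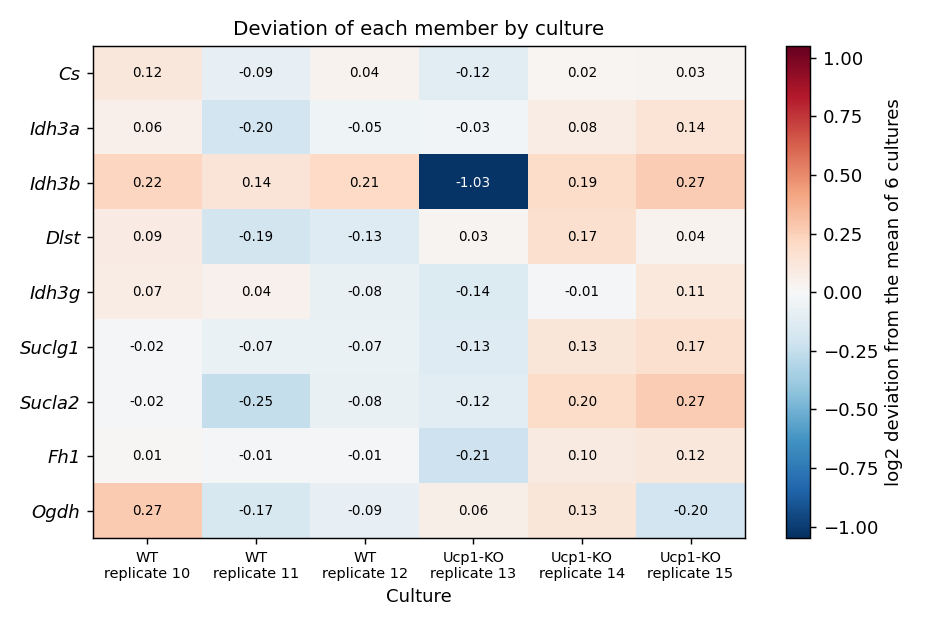
Deviation of log2(RPKM + 1) from each gene's mean over the 6 cultures, with genes as rows, cultures as columns and values printed in the cells (blue below, red above the mean). Idh3b of Ucp1-KO replicate 13 is at -1.03, and the other cells lie between -0.25 and 0.27.

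Ratios within a culture cancel its depth and scaling. Idh3a and Idh3b were close to equal in 5 cultures, with ratios of 1.09, 0.962 and 1.02 in WT and 1.13 and 1.12 in Ucp1-KO replicates 14 and 15. In Ucp1-KO replicate 13 the ratio was 2.45. All Ucp1-KO ratios were above all WT ratios, a difference of 0.51 on the log2 scale, and of 0.14 without replicate 13 (exact two-sided permutation test over 6 cultures, p = 0.1, 0.25 adjusted over 5 ratios). With 3 cultures against 3 no smaller p than 0.1 is possible. Idh3b exceeded Idh3g 1.41-fold to 1.61-fold in 5 cultures, while in Ucp1-KO replicate 13 the ratio was 0.715 (exact permutation test between genotypes, p = 0.6). Idh3a exceeded Idh3g in every culture, from 1.36-fold in WT replicate 11 to 1.75-fold in Ucp1-KO replicate 13 (exact permutation test, p = 0.2). Ucp1-KO replicate 13 thus lay outside the range of the other cultures most in the ratios that contain Idh3b.

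**Figure D3:**
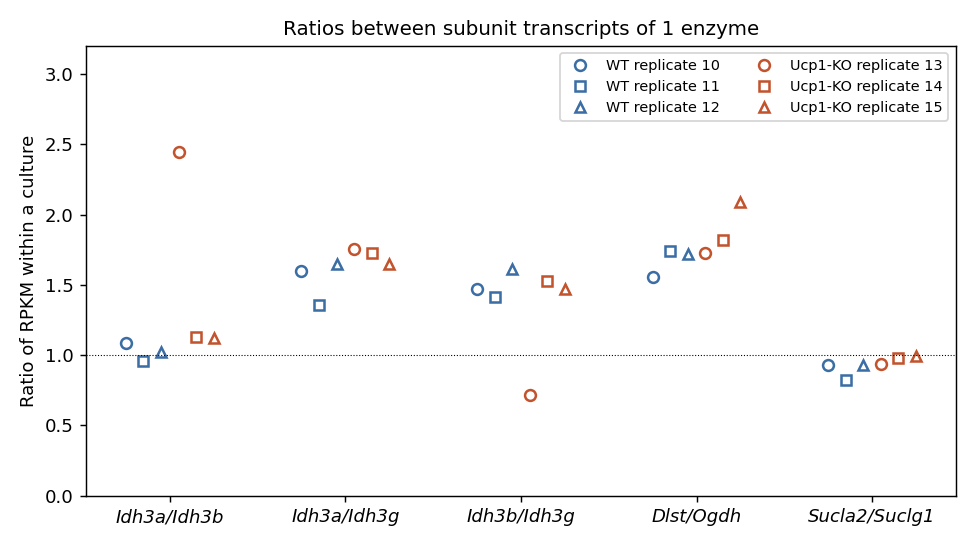
Ratio of RPKM between subunit transcripts of the same enzyme (vertical axis, linear from 0, dotted line at 1), with 1 symbol per culture (WT blue, Ucp1-KO red). Ucp1-KO replicate 13 is at 2.45 for Idh3a/Idh3b and at 0.715 for Idh3b/Idh3g, and lies among the other cultures for Dlst/Ogdh.

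The 2-oxoglutarate dehydrogenase complex turns 2-oxoglutarate into succinyl-CoA. Ogdh encodes its decarboxylating E1 component, on chromosome 11 (6291597 to 6359094, forward strand, 23 exons). Dlst encodes the succinyltransferase E2 core, on chromosome 12 (85110822 to 85134091, forward strand, 15 exons). Ogdh had 209, 154 and 163 RPKM in the WT and 180, 189 and 150 RPKM in the Ucp1-KO cultures. It was the most variable member in WT cells, with a coefficient of variation of 16.9%, and WT replicate 10 and Ucp1-KO replicate 15 formed its extremes. The log2 fold change was -0.01 (SE 0.15, limma adjusted p = 0.994). Its 5 RefSeq transcripts had at least 98.0% of the reads of the one used here and log2 fold changes of -0.01 throughout. They share almost all reads, so that splice forms could not be compared.

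Dlst had 325, 267 and 279 RPKM in the WT and 311, 344 and 314 RPKM in the Ucp1-KO cultures. A WT culture lay above 2 of the 3 Ucp1-KO cultures, and the log2 fold change was 0.16 (SE 0.11, limma adjusted p = 0.878). Dlst exceeded Ogdh in every culture, from 1.56-fold in WT replicate 10 to 2.09-fold in Ucp1-KO replicate 15. The ratio averaged 1.67 ± 0.0983 for WT and 1.88 ± 0.189 for Ucp1-KO (SD, n = 3 each, exact permutation test, p = 0.2). The log2 difference of 0.17 became 0.09 without Ucp1-KO replicate 15. Dld, the E3 component that the complex shares with pyruvate dehydrogenase, was near Dlst, which reached 0.845 to 0.954 times the level of Dld.

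Succinate-CoA ligase makes succinate and a nucleoside triphosphate, the only step of the cycle that does so directly. Its alpha subunit, encoded by Suclg1 on chromosome 6 (73248505 to 73276907, forward strand, 9 exons), pairs with the ADP-specific beta subunit encoded by Sucla2 on chromosome 14 (73552786 to 73596144, forward strand, 11 exons) or with the GDP-specific one encoded by Suclg2. Sucla2 had 270, 229 and 258 RPKM in the WT and 251, 313 and 328 RPKM in the Ucp1-KO cultures. Ucp1-KO replicates 14 and 15 were above all WT cultures, and replicate 13 was below 2 of them. With 0.23 (SE 0.13), a 95% confidence interval from 0.943-fold to 1.46-fold of WT, Sucla2 had the highest log2 fold change of the 9 genes (limma adjusted p = 0.876). Without Ucp1-KO replicate 13 it was 0.35 (SE 0.11), at a limma unadjusted p of 0.0205 and an adjusted p of 0.473.

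Suclg1 had 290, 279 and 279 RPKM in the WT and 268, 320 and 330 RPKM in the Ucp1-KO cultures. The WT cultures were close together and lay between the Ucp1-KO cultures, and the log2 fold change was 0.11 (SE 0.11, limma adjusted p = 0.901). Sucla2 reached 0.930, 0.821 and 0.926 times the level of Suclg1 in WT and 0.937, 0.976 and 0.993 times in Ucp1-KO cultures. These ratios did not overlap, by a narrow margin (log2 difference 0.12, exact permutation test, p = 0.1, 0.25 adjusted over 5 ratios). Without WT replicate 11 the difference was 0.06. Suclg2 was rare beside Sucla2, at 16.1 ± 0.481 RPKM for WT and 15.1 ± 1.76 RPKM for Ucp1-KO (SD over 3 cultures each). Sucla2 was 14.03-fold to 16.6-fold above Suclg2 in WT and 19.0-fold to 21.0-fold above it in Ucp1-KO cultures. This ratio was examined after the values were known and not tested. Of single transcripts, 11.2% did not overlap between genotypes. Ratios of Idh3a to other isocitrate dehydrogenase genes and of Ogdh and Dlst to Dld, also not tested, overlapped between genotypes.

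Fumarase hydrates fumarate to malate. Fh1 lies on chromosome 1 (175601378 to 175625635, reverse strand, 10 exons). It had 258, 253 and 254 RPKM in the WT and 220, 273 and 278 RPKM in the Ucp1-KO cultures. The WT cultures differed by a coefficient of variation of 0.941%, the lowest of the 9 genes, and the Ucp1-KO cultures lay on both sides of them. The log2 fold change was 0.0018 (SE 0.12, limma adjusted p = 0.998).

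Between genotypes, 0 of the 9 genes had a limma adjusted p under 0.05, as was the case for 0% of the 16865 transcripts tested. At a limma unadjusted p under 0.05 there were also 0 of 9, where 5.54% of all transcripts passed (2.3% higher and 3.24% lower in Ucp1-KO), and limma-voom on the recovered reads gave 0 of 9 at either threshold. The genotypes overlapped for all 9 genes, while they did not for 11.2% of all transcripts. The median log2 fold change was 0.0018 over the members and -0.0016 over all transcripts. Of the members 5 were higher and 4 lower in Ucp1-KO cells, where 49.6% of all transcripts were higher. This balance rested on single cultures. Without Ucp1-KO replicate 13, 8 members were higher (median 0.11, against 0.02 over all transcripts), as were 54.1% of all transcripts. The count was 8 without WT replicate 10 and 4 without Ucp1-KO replicate 14, WT replicate 11 or WT replicate 12. For these runs the share over all transcripts is not given. Without Ucp1-KO replicate 13, Sucla2 was the single member at an unadjusted p under 0.05, where 9.14% of all transcripts passed, 3.88% of them all being higher in Ucp1-KO.

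**Figure D4:**
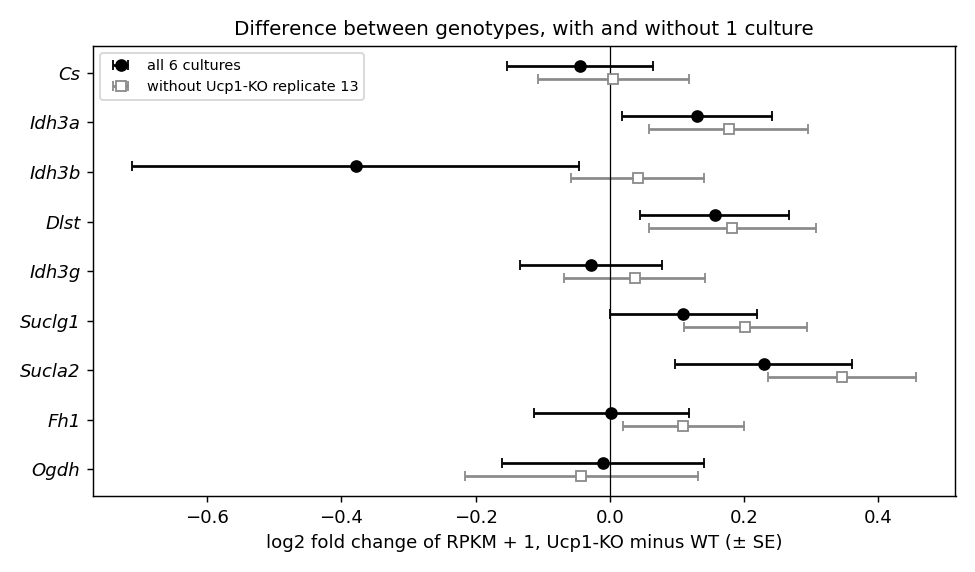
Log2 fold change of RPKM + 1 between genotypes (horizontal axis, Ucp1-KO minus WT, bars ± SE from limma) for each gene with all 6 cultures (black circles) and without Ucp1-KO replicate 13 (open squares). Idh3b goes from -0.38 to 0.04, and Sucla2 from 0.23 to 0.35.

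Ucp1-KO replicate 13 held the lowest value for 5 of the 9 genes (Cs, Idh3b, Idh3g, Suclg1 and Fh1) and WT replicate 11 for 3 (Idh3a, Dlst and Sucla2). Ucp1-KO replicate 15 held the highest for 6 and at the same time the lowest of Ogdh. Over the 12259 genes at the minimum, 24.3% were lowest in Ucp1-KO replicate 13, 12.5% were lowest in WT replicate 11 and 23.4% were highest in Ucp1-KO replicate 15. Summed over the 9 genes, abundance was 3367, 2986 and 3138 RPKM in the WT and 2791, 3390 and 3429 RPKM in the Ucp1-KO cultures. Without Idh3b the sums were 2900, 2545 and 2676 RPKM in the WT and 2595, 2932 and 2947 RPKM in the Ucp1-KO cultures, and WT replicate 11 in place of Ucp1-KO replicate 13 was lowest. WT replicate 11 was also the culture with the highest sums of stromal and endothelial markers, and the part of these in its low values was not tested. Values were above the mean in 8 of 9 genes in both Ucp1-KO replicates 14 and 15, and in 7 of 9 in WT replicate 10. Over all genes at the minimum, 58.6%, 48.5% and 33.6% were above their mean in these cultures. Summed macrophage markers were highest in Ucp1-KO replicate 14 and lowest in Ucp1-KO replicate 15. The latter also had the lowest stromal sum (581 RPKM) and the highest brown adipocyte sum (33809 RPKM). The part of these markers was not tested.

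By the root-mean-square difference of log2 deviations over the 6 cultures, the genes close to the mean profile of the members included Coq6 (0.034), Acadl (0.035), Ndufb8 (0.038) and Hadha (0.043). The median over the 5030 genes compared, those with a mean of at least 10 RPKM, was 0.18. Coq6 encodes an enzyme of coenzyme Q synthesis, Acadl and Hadha enzymes of fatty acid oxidation and Ndufb8 a subunit of respiratory complex I. The mean profile rested on Idh3b, since it stood at -0.19 in Ucp1-KO replicate 13 with all 9 genes and at -0.08 without Idh3b. Against the profile without Idh3b, a comparison added after the values were seen, the differences were 0.061 for Coq6, 0.047 for Acadl, 0.049 for Ndufb8 and 0.069 for Hadha, which placed them at ranks between 18 and 129. The 5 genes nearest to that profile were Atp5k (0.022), Aifm2 (0.026), Timm44 (0.030), Mrpl16 (0.033) and Uqcrfs1 (0.033). Atp5k and Uqcrfs1 encode subunits of ATP synthase and respiratory complex III, Timm44 a component of mitochondrial protein import, Mrpl16 a mitochondrial ribosomal protein and Aifm2 an oxidoreductase. The likeness is a description over 6 cultures that share their depth and makeup.

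Of 9 other genes of the cycle examined, 8 were abundant enough to be tested, with 3 higher, 5 lower and a median log2 fold change of -0.04. Values lay between -0.12 for Sdha, the flavoprotein of succinate dehydrogenase, and 0.20 for Dld. For Sdha all Ucp1-KO cultures (397, 436 and 449 RPKM) were below all WT cultures (492, 450 and 453 RPKM), which was the case for 5.15% of all transcripts in this direction (limma adjusted p = 0.889). Ogdhl, a homologue of Ogdh, was at most marginally detected, with 0.0622 ± 0.0357 RPKM in WT cells (SD, n = 3). Of the 8 genes tested 0 had a limma unadjusted p under 0.05, where 5.54% of all transcripts passed. Idh2, the NADP-dependent mitochondrial isocitrate dehydrogenase, had 112 ± 4.19 RPKM in WT cells (SD, n = 3), so that Idh3a was 3.71-fold to 4.74-fold above it there and 4.29-fold to 5.46-fold in Ucp1-KO cells.

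On the side of pyruvate entry, 8 of 13 genes were higher and 5 lower, with a median log2 fold change of 0.06. Of the 13, 1 had a limma unadjusted p under 0.05, where 5.54% of all transcripts passed (2.3% being higher in Ucp1-KO). This was Pdhb, the beta subunit of the E1 component of pyruvate dehydrogenase. Pdhb had 278, 226 and 260 RPKM in the WT and 302, 327 and 310 RPKM in the Ucp1-KO cultures, with all Ucp1-KO above all WT cultures, as for 6.04% of all transcripts. The lowest was WT replicate 11, with the highest sums of stromal and endothelial markers, whose part was not tested. Its log2 fold change was 0.30 (SE 0.11, limma unadjusted p = 0.0280, adjusted p = 0.868), and from 0.22 to 0.37 when single cultures were left out. Mpc1, a subunit of the mitochondrial pyruvate carrier, had the highest value with 0.32 (SE 0.18, limma adjusted p = 0.871) and Pdk3, a pyruvate dehydrogenase kinase, the lowest with -0.38 (SE 0.16, limma adjusted p = 0.868). With single cultures left out, Mpc1 ran from 0.18 to 0.46 and Pdk3 from -0.53 to -0.24. Mpc1 was not the highest without Ucp1-KO replicate 15, WT replicate 11 or WT replicate 12, where Mpc2 (0.33 and 0.24) or Pdhb (0.32) exceeded it. In the other direction, the Ucp1-KO cultures lay below all WT cultures for Pdk2, another of these kinases, and for Pdp1, a pyruvate dehydrogenase phosphatase, as for 5.15% of all transcripts. Their log2 fold changes were -0.08 (SE 0.08, limma adjusted p = 0.904) and -0.10 (SE 0.09, limma adjusted p = 0.895). The margin for Pdk2 was narrow, with 93.4 RPKM in the highest Ucp1-KO and 93.6 RPKM in the lowest WT culture.

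Of 6 genes of cytosolic counterparts and citrate use, 3 were higher and 3 lower, with a median of 0.04. A limma unadjusted p under 0.05 was reached by 0 of 6, against 5.54% of all transcripts. The values lay between -0.17 for Acly, which splits citrate in the cytosol, and 0.23 for Me1, the cytosolic malic enzyme. The genotypes did not overlap for Aco1, which encodes a cytosolic enzyme and iron regulatory protein, higher in Ucp1-KO as for 6.04% of all transcripts (89.2 ± 2.62 RPKM in WT, 94.5 ± 2.45 RPKM in Ucp1-KO, SD, n = 3 each). The log2 mean of Acly was lower in Ucp1-KO, but its mean RPKM was 277 against 274 in WT. Acly spread widely within both genotypes, from 188 to 430 RPKM in WT and from 101 to 497 RPKM in Ucp1-KO cultures.

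**Figure D5:**
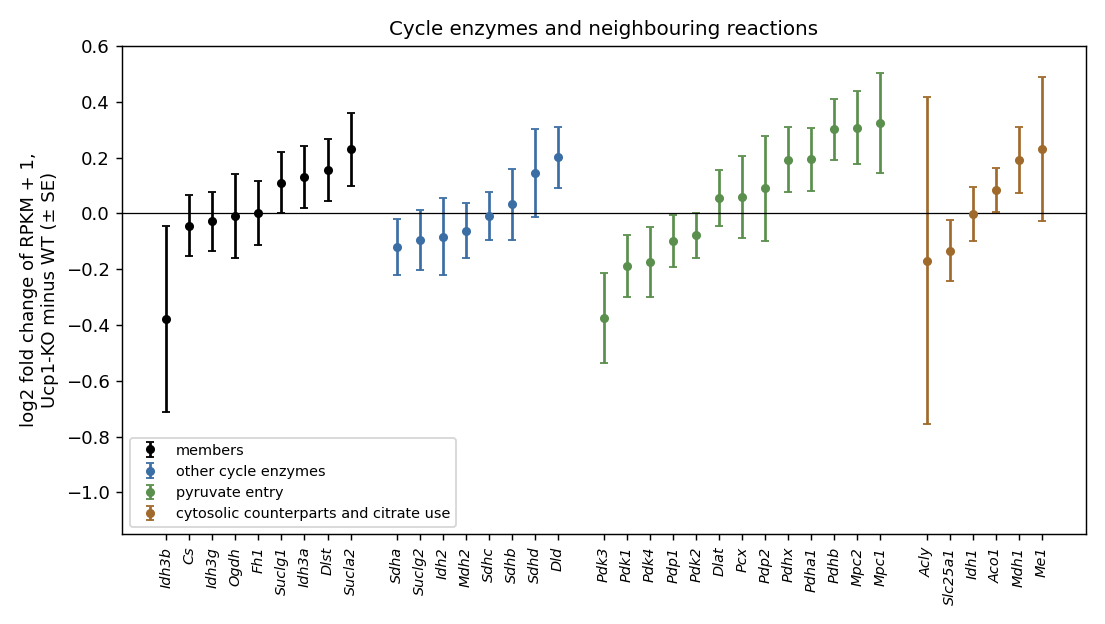
Log2 fold change of RPKM + 1 between genotypes (vertical axis, Ucp1-KO minus WT, bars ± SE from limma) for the 9 members and 27 genes of neighbouring reactions, sorted within each list. All lists spread around 0, from -0.38 to 0.23 in the members and from -0.38 to 0.32 in pyruvate entry.

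The upstream windows of 250 bases were searched on both strands for motifs of factors known from promoters of mitochondrial and housekeeping genes, for the 8 members other than Idh3a. The letters of the estrogen-related receptor motif (AAGGTCA), the NRF1 motif, the ETS and GABP motif (CCGGAAGT) and the TATA box (TATAAA) were in 0 of 8, against 4.08%, 0.782%, 2.88% and 12.4% of all 32851 windows. The SP1 motif (GGGCGG) was in 5 of 8 (Cs, Ogdh, Dlst, Sucla2 and Fh1) and in 32.7% of all windows. The NF-Y motif was in 4 of 8 (Cs, Idh3b, Ogdh and Fh1) and in 33.8% of all windows. Idh3g, printed above, contained none of them.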

How the data were processed

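Total RNA of 6 cultures was sequenced as single reads of 50 bases (TruSeq library, no strand setting named), and CASAVA and bcl2fastq are named in the submitters' processing notes. The authors mapped the reads to build 38 of the mouse genome, assigned uniquely placed reads to known transcripts on a Genomatix station and deposited RPKM values per transcript and culture. Unique placement can lower values of genes with near-identical copies. Genotype and replicate number came from the sample titles.

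From the 168326 rows, 28890 RefSeq rows were used. The genotype comparison used R 4.3.3 with limma 3.58.1 (empirical Bayes with trend) on log2(RPKM + 1) for 16865 rows with a mean of at least 0.5 RPKM, and p-values were adjusted by Benjamini and Hochberg at 0.05. The added 1 RPKM slightly understates fold changes. Single ratios were compared by exact permutation over cultures. RPKM times length times total gave whole reads (within 0.02) in all cultures for 16862 of the 16865 rows, and 3 further rows were left out of limma-voom. Genes named are the 9 members, Ucp1, the extremes and the genes past an unadjusted p of 0.05 of each pathway list, and genes whose profile over the cultures is most like that of the members, of which 1 is not reported here. Others singled out (Hcn2, Id2, Nop56, Cpxm1, Pced1a, Ogdhl, Idh2, Suclg2, Pdk2, Pdp1, Mpc2, Aco1, Myog, Cidea, and the 5 genes nearest to the profile without Idh3b) were chosen after their values were seen. Members and lists were chosen with earlier results of these data known. Coordinates and promoters are from RefSeq and exon numbers from GENCODE M21, both on GRCm38. The fit was tested on simulated data. Alternatives were another constant (0.1), no minimum, another scaling, other transcripts per gene, reads in place of RPKM and leaving out each culture. Further steps ran in Python 3.11.15 with matplotlib 3.10.9, scipy 1.17.1, pandas 2.3.3 and numpy 2.4.6.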

Additional observations from a re-analysis of the deposited data

How the results depend on the processing

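Over the 16865 transcripts tested, 0 had an adjusted p under 0.05 in each alternative run, and 935 had an unadjusted p under 0.05. That number ran from 317 to 1754 when single cultures were left out, with 1754 without WT replicate 10, 1542 without Ucp1-KO replicate 13, 602 without Ucp1-KO replicate 14, 441 without WT replicate 12 and 317 without WT replicate 11. It was 685 with 1 transcript per gene, over fewer tests, and 1341 over all transcripts above 0 in any culture. Of the 9 members 0 passed an adjusted p of 0.05 in any alternative, the smallest being 0.473 for Sucla2 without Ucp1-KO replicate 13.

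Leaving out single cultures turned the log2 fold change of 5 members. It ran from -0.10 to 0.0052 for Cs, from -0.61 to 0.0412 for Idh3b, from -0.0924 to 0.0369 for Idh3g, from -0.10 to 0.12 for Ogdh and from -0.0588 to 0.11 for Fh1. The log2 difference in Idh3b/Idh3g ran from -0.54 to 0.0043, in Idh3a/Idh3b from 0.14 to 0.70, in Idh3a/Idh3g from 0.07 (without WT replicate 11) to 0.21, in Dlst/Ogdh from 0.09 to 0.23 and in Sucla2/Suclg1 from 0.06 to 0.15. Median-of-ratios scaling, which moved the median of all transcripts by 0.01, turned Ogdh to 0.0018, and the median of Ensembl transcripts, chosen after the data were seen, turned Fh1 to -0.0092. These values lie close to 0, and the cause was not tested. Idh3a, Dlst, Sucla2 and Suclg1 stayed above 0 in all alternatives run, with leave-one-out ranges of 0.06 to 0.19, 0.10 to 0.24, 0.15 to 0.35 and 0.05 to 0.20. No paired analysis was run because the labels name no pairing between WT and Ucp1-KO cultures.

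Each member value rested on 4801 reads or more, from 3 cultures per genotype. The confidence intervals of the 8 members other than Idh3b leave room for differences of up to 1.46-fold, and that of Idh3b reaches down to 0.445-fold of WT.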
